A study of Homo sapiens with 18 samples.

Results

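The aminoacyl-tRNA synthetases were followed in bulk RNA sequencing of HUDEP1, a human erythroid progenitor line immortalised for culture. The set was chosen by gene symbol and holds 36 genes, 20 for the cytosolic enzymes and 16 for the mitochondrial enzymes, whose symbols end in 2. All 36 were among the 13358 genes of the deposited table. All 36 also passed the filter for low values (3 or more libraries at 1 or above) that kept 11110 genes, and none was at 0 in any library.

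Poly(A) RNA was sequenced from 3 clones, each in 2 culture conditions with 3 libraries, which gave 6 groups and 18 libraries. GATA1 is a master transcription factor of the red cell lineage. Clone FL expressed it in full length, and clones 1D5 and 1KI9 expressed GATA1s, the short isoform without the N-terminus. Expansion cultures were kept serum-free with erythropoietin at 3 U/mL, stem cell factor at 50 ng/mL, dexamethasone at 1 µM and doxycycline at 1 µg/mL. Day-4 cultures had spent 4 days in a differentiation medium with 2% fetal bovine serum, 3% human AB serum, insulin, heparin and holo-transferrin. It kept doxycycline and both cytokines at the expansion concentrations, and dexamethasone is not among its listed components. Because FL is 1 clone, genotype and clone cannot be told apart, and medium, time and any batch go with condition. The labels do not say that replicate libraries came from separate cultures, so p-values measure the spread between libraries only, which may be technical.

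Aminoacyl-tRNA synthetases join each amino acid to the tRNA that carries its anticodon, which is the step where the genetic code is read into chemistry. Cytosolic enzymes charge the tRNAs used by cytoplasmic ribosomes, and several of them sit in a large multisynthetase complex. The mitochondrial enzymes are made from nuclear genes, imported, and charge the tRNAs for the few proteins of the respiratory chain that mitochondria translate themselves. In erythroid cells the cytosolic set serves a program dominated by globin synthesis, while the mitochondrial set serves the organelle in which heme synthesis begins and ends. The genes for glycyl- and lysyl-tRNA synthetase (GARS and KARS) each encode both a cytosolic and a mitochondrial form and were counted here as cytosolic.

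Several synthetase genes are textbook targets of ATF4, the transcription factor of the amino acid response, which acts through the C/EBP-ATF response element. Promoters were therefore searched for the core of that element, TGATGNAA, on both strands, in RefSeq windows of 250 bases before to 50 bases after a gene's start (GRCh38.p14). Of the 36 genes, 30 matched a RefSeq promoter, and DARS, LARS, VARS, YARS, AARS2 and VARS2 did not. A gene with several starts was counted when any of its windows held the core, and 9 of the 30 genes had more than 1 start. The core was found for 7 of 16 cytosolic genes and 1 of 14 mitochondrial genes. Of the 9002 genes that passed the filter and matched a promoter, 224 held the core, or 2.49%. The windows of 30 bases that hold it are shown to let the copies be compared, 5′ to 3′ on the gene's strand with the core in capitals.
AARS (chr16:70289675-70289704, minus strand, 187 bases before the start): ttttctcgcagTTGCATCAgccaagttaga
CARS (chr11:3057407-3057436, minus strand, 2 bases before the start): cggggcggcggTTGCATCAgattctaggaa
GARS (chr7:30594834-30594863, plus strand, 33 bases before the start): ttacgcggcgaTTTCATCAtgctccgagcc
IARS (chr9:92293692-92293721, minus strand, 13 bases before the start): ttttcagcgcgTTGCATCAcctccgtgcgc
MARS (chr12:57488053-57488082, plus strand, 4 bases before the start): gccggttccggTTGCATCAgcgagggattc
NARS (chr18:57621804-57621833, minus strand, 14 bases after the start): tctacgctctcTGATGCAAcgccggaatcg
TARS (chr5:33440956-33440985, plus strand, 2 bases after the start): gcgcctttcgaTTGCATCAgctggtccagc
YARS2 (chr12:32756076-32756105, minus strand, 197 bases before the start): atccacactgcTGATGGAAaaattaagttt

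The E-box CACGTG, which MYC and its partner MAX bind, was found for 1 of the 16 cytosolic genes (IARS) and 3 of the 14 mitochondrial ones. It was found for 1187 of the 9002 genes, or 13.2%. The mitochondrial windows are shown because 2 of them belong to genes described further on, with the E-box in capitals. The EARS2 copy also lies 10 bases after another RefSeq start of that gene.
CARS2 (chr13:110706500-110706529, minus strand, 3 bases before the start): gctgggatgcaCACGTGcttcgctaacagg
EARS2 (chr16:23557347-23557376, minus strand, 15 bases before the start): agggagaagccCACGTGtgctattccatcc
MARS2 (chr2:197705347-197705376, plus strand, 11 bases before the start): tgcgcctctcaCACGTGctgtcagaacgcc

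The GATA motif, searched as AGATAA or TGATAA on both strands, was found for 2 of 16 cytosolic genes (FARSA and TARS) and 0 of 14 mitochondrial genes. It was found for 1033 of the 9002 genes, or 11.5%. IARS held both TGATGNAA and CACGTG, with the E-box 186 bases before the start. TARS held both TGATGNAA and the GATA motif, the latter in the window chr5:33440660-33440689. A match is a description of the letters in the window, and nothing about binding was measured in these libraries.

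Values in expansion were deposited as TPM, a share of all transcripts corrected for gene length. Day-4 values were on a TPM-like scale that carried a further scaling of unknown method. Library sums ran from 943734 to 950736 in expansion and from 814583 to 1081251 at day 4, and the read depth behind them is unknown. Replicate libraries correlated at 0.9921 to 0.9979 on the log scale, and no pair was identical. In expansion, erythroid markers summed to 42860 to 81640 in FL, 35110 to 53160 in 1D5 and 31000 to 34410 in 1KI9, and 6 of 13 were called lower in GATA1s. They summed to 265800 to 282500 in FL at day 4, to 124800 to 142700 in 1D5 and to 70450 to 79920 in 1KI9 at day 4, with 13 of 13 markers in the table. Monocyte and neutrophil markers, with 5 of 10 in the table, summed to 8.2 to 38.8 in FL and to 185 to 233 in 1KI9 in expansion, and to 43.5 to 47.1 in FL and 395 to 418 in 1KI9 at day 4. Mast cell markers, with 4 of 5 in the table, stood in the same order within each condition, from 3.11 to 4.33 in FL in expansion to 289 to 310 in 1KI9 at day 4. In bulk RNA, fewer cells of a type and less RNA per cell cannot be told apart, and the part of these markers in the results below was not tested.

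Because TPM is a share of all transcripts, each comparison was also computed after a median-of-ratios scaling and after rescaling without globin and mitochondrially encoded genes. Globin transcripts took 32.9% to 34.1% of the FL libraries at day 4, compared with 16% to 16.9% for 1D5 and 10.1% to 10.8% for 1KI9. The median of all genes in GATA1s against FL at day 4 was 0.29 on the log2 scale as deposited, 0.33 without globin and mitochondrially encoded genes, and -0.02 after median-of-ratios scaling. In expansion it was 0.06, 0.07 and -0.05 under the same scalings. Each set of synthetases is therefore also given relative to that median.

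Levels per length differed widely among the enzymes. Cytosolic synthetases had a median level of 159 TPM in FL in expansion and the mitochondrial ones 20.0 TPM. QARS (glutaminyl-tRNA synthetase, chr3:49095932-49105135) was the highest of the 36 in all 6 groups, at 282.9 TPM ± 27.4 (SD, n = 3) in FL in expansion. PARS2, the mitochondrial prolyl enzyme, was the lowest in all 6, with 7.02, 6.84 and 6.97 TPM in the same libraries. FARSB was the lowest cytosolic member and IARS2, the mitochondrial isoleucyl enzyme, the highest mitochondrial member in all 6 groups. Along the order of levels in FL in expansion, 13 of the 35 neighbouring pairs had libraries that did not overlap. For 15 of the 17 pairs of enzymes for the same amino acid, the cytosolic transcript was the higher one in 18 of 18 libraries, with CARS over CARS2 in 14 and FARSB over FARS2 in 9.

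In expansion, cytosolic synthetase transcripts were lower in GATA1s cells than in FL, and the mitochondrial ones with 1 exception did not pass the test. Calls required that both clones passed against FL in the same direction at a limma adjusted p of 0.05 over all genes. Of 11042 genes tested, 26.4% were called, 17.5% higher and 8.98% lower. Of the 20 cytosolic members 13 were lower, 0 were higher and 7 were not called, and of the 16 mitochondrial members 1 was lower and 0 were higher. At an unadjusted p under 0.05 in both clones the limma counts were 13 lower and 0 higher for the cytosolic set and 1 lower and 2 higher for the mitochondrial set. The cytosolic median was -0.28 on the log2 scale, or -0.34 relative to all genes, and the mitochondrial median was -0.04, or -0.10 relative to all genes. After median-of-ratios scaling 15 cytosolic and 2 mitochondrial members were lower, where 15.5% of all genes were. Without globin and mitochondrially encoded genes 12 cytosolic members were lower, with 1 mitochondrial member lower and 1 higher. Of all genes, 7.78% were then lower and 19.3% higher. Under all 3 scalings, 12 cytosolic genes were called lower, namely AARS, EPRS, FARSB, GARS, KARS, LARS, MARS, NARS, TARS, VARS, WARS and YARS.

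GARS (ENSG00000106105.14, chr7:30594681-30634033), which charges glycine in both compartments, had levels in expansion of 221, 209 and 225 TPM in FL, 169, 146 and 162 TPM in 1D5 and 149, 150.3 and 152 TPM in 1KI9. No GATA1s library reached the FL libraries. The log2 difference was -0.50 ± 0.045 (SE), or 1.41-fold lower, with a limma adjusted p of 4.49e-08. YARS (ENSG00000134684.10, chr1:32775237-32818153), the tyrosyl enzyme, had levels of 168, 167 and 175 TPM in FL, 129.9, 122 and 125 TPM in 1D5 and 107, 119 and 121 TPM in 1KI9. Its difference was also -0.50 (± 0.046, adjusted p = 6.82e-08, limma), again with no overlap. MARS (ENSG00000166986.15, chr12:57475445-57517569), which charges methionine for initiation and elongation, had levels of 262, 241 and 266 TPM in FL, 201, 189 and 208 TPM in 1D5 and 155, 185 and 174 TPM in 1KI9. The GATA1s libraries lay below the FL libraries throughout, with a difference of -0.47 ± 0.060 (adjusted p = 3.16e-06).

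AARS (ENSG00000090861.15, chr16:70252295-70289543), the alanyl enzyme, had levels in expansion of 115, 92.3 and 114 TPM in FL, 82.5, 80.6 and 84.5 TPM in 1D5 and 67.0, 75.2 and 77.3 TPM in 1KI9. Its FL libraries spread more than those of GARS or YARS, and still the groups did not overlap. The log2 difference was -0.45 ± 0.061, with a limma adjusted p of 6.44e-06. VARS (ENSG00000204394.13, chr6:31777518-31795953), the valyl enzyme, had levels of 127, 146 and 139 TPM in FL, 110.1, 109.7 and 107 TPM in 1D5 and 91.4, 98.7 and 109.7 TPM in 1KI9, a difference of -0.39 ± 0.060 (adjusted p = 2.98e-05). The 1 mitochondrial gene called was MARS2 (ENSG00000247626.4, chr2:197705369-197708387), which charges the methionyl tRNA that starts mitochondrial translation. MARS2 had levels of 20.8, 22.4 and 22.9 TPM in FL, 17.7, 16 and 16.3 TPM in 1D5 and 14.3, 15.9 and 16.6 TPM in 1KI9. The difference was -0.43 ± 0.064 (adjusted p = 1.95e-05), and the methionyl enzymes of both compartments were thus lower in GATA1s.

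**Figure D1:**
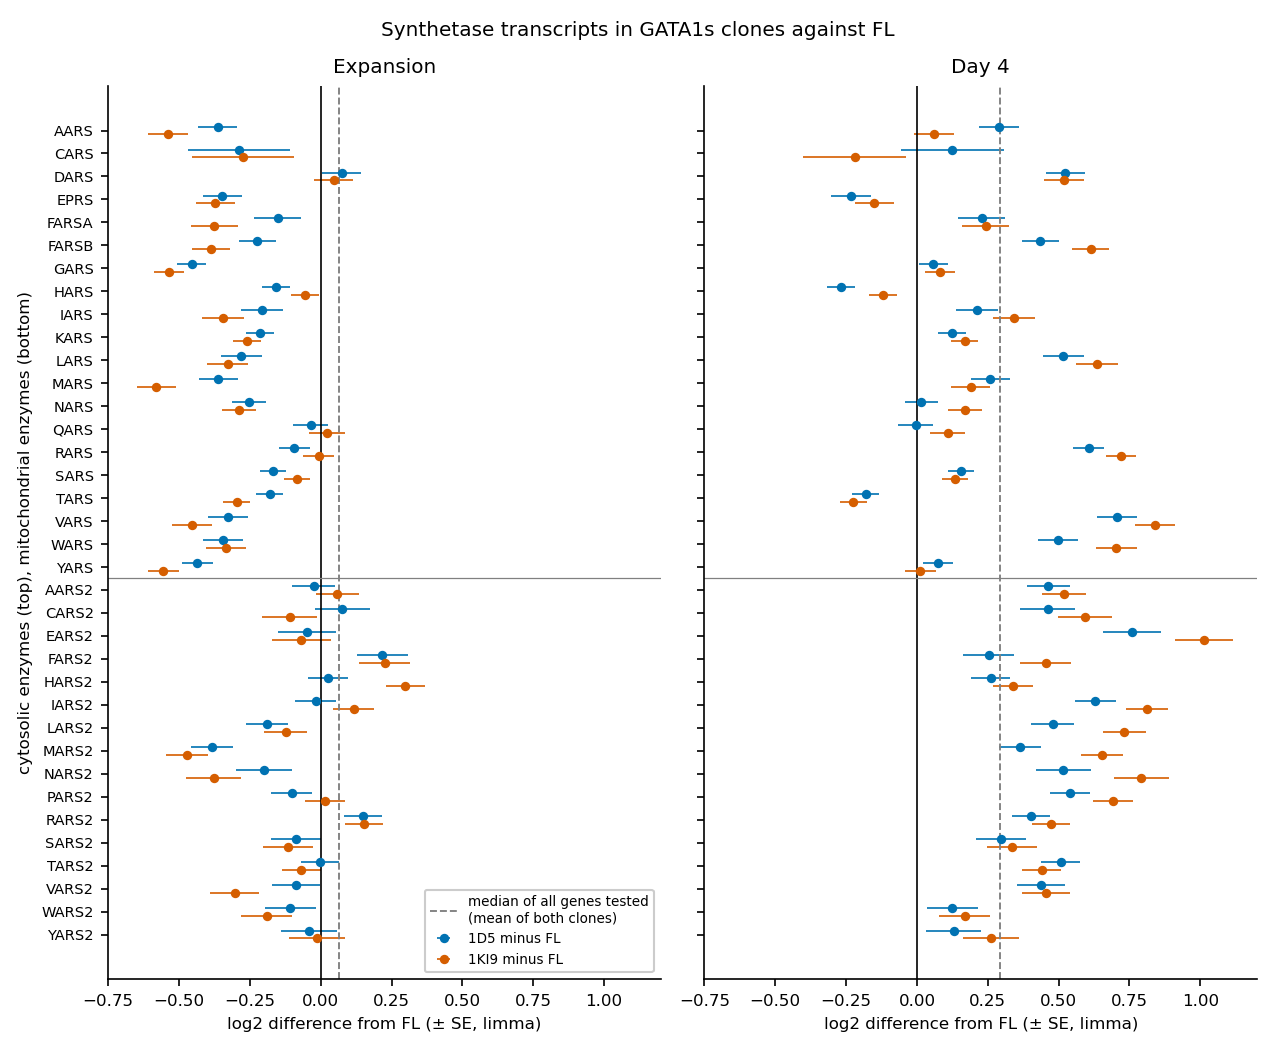
Each row is 1 synthetase gene, cytosolic above the grey line and mitochondrial below, and points give the log2 difference of 1D5 (blue) or 1KI9 (orange) from FL with its SE (limma, n = 3 libraries a group), in expansion on the left and at day 4 on the right, as deposited. The dashed line is the median of all genes tested, 0.06 in expansion and 0.29 at day 4; most cytosolic points lie left of it in both panels, and zero at day 4 moves with the scaling, so that 10 cytosolic and 4 mitochondrial members change sign across the 3 scalings.

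Differences were small for all members in expansion. None reached 1.5-fold, and cytosolic log2 differences ran from -0.50 to 0.06. Among the 8 enzymes of the multisynthetase complex 5 were lower, and among the other 12 cytosolic enzymes 8 were. The 7 cytosolic genes not called were CARS, DARS, FARSA, HARS, QARS, RARS and SARS, and DARS and QARS changed sign with the scaling. In 14 cytosolic members the 6 GATA1s libraries all lay below the 3 FL libraries, which held for 10.1% of all genes. Of the mitochondrial members, MARS2 lay below, and FARS2 and RARS2 lay above, where 18.9% of all genes lay above. Of the 7 cytosolic genes with TGATGNAA in the promoter 6 were called lower, with a median of -0.28, and of the 9 without it 4 were, with a median of -0.24.

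At day 4 the median log2 difference of GATA1s from FL was positive for the mitochondrial synthetases under all 3 scalings, though its size varied. The cytosolic median changed sign, from 0.16 as deposited to -0.20 after median-of-ratios scaling. Of 11083 genes tested, 65.5% were called in both clones, 51.2% higher and 14.3% lower as deposited. On that scale 11 cytosolic members were higher, 2 (HARS and TARS) were lower and 7 were not called, while 14 mitochondrial members were higher and WARS2 and YARS2 were not called. The cytosolic median was 0.16, or -0.13 relative to all genes, and the mitochondrial median was 0.48, or 0.19 relative to all genes. After median-of-ratios scaling the cytosolic counts turned to 4 higher and 9 lower, and 6 mitochondrial members were higher and 0 lower, with 26.4% of all genes higher and 31.3% lower. The medians relative to all genes were then -0.18 and 0.18. Called higher under all 3 scalings were FARSB, LARS, RARS and VARS among the cytosolic enzymes and AARS2, EARS2, IARS2, LARS2, NARS2 and PARS2 among the mitochondrial ones, and TARS was called lower under all 3. KARS and SARS were called higher as deposited and lower after median-of-ratios scaling.

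VARS, lower in GATA1s in expansion, was the cytosolic gene with the largest called difference at day 4. Its levels at day 4 were 33.9, 32.9 and 29.6 in FL, 52.7, 51.1 and 55.1 in 1D5 and 60.4, 58.8 and 55.4 in 1KI9, in deposited TPM units. All 6 GATA1s libraries lay above FL, with a log2 difference of 0.77 ± 0.060 (limma adjusted p = 1.96e-09) as deposited and 0.42 after median-of-ratios scaling. RARS (ENSG00000113643.9, chr5:168486445-168519299), the arginyl enzyme of the complex, had day-4 levels of 30.6, 31.5 and 30.8 in FL, 48.1, 45.7 and 49.3 in 1D5 and 51.5, 51.2 and 52.3 in 1KI9. These groups did not overlap either, and RARS differed by 0.66 ± 0.047 (adjusted p = 4.38e-10), or 0.31 after median-of-ratios scaling. LARS, the leucyl enzyme, had day-4 levels of 61.9, 62.3 and 64.9 in FL, 99.3, 78.5 and 95.4 in 1D5 and 98.1, 93.6 and 104 in 1KI9. All GATA1s values were above FL, with a difference of 0.58 ± 0.063 (adjusted p = 1.78e-07), or 0.22 after median-of-ratios scaling.

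WARS (ENSG00000140105.18, chr14:100333788-100376805), the tryptophanyl enzyme that interferon also induces, had day-4 levels of 67.7, 63.8 and 68.5 in FL, 95.3, 92.4 and 96.2 in 1D5 and 103, 114 and 111 in 1KI9. No overlap was seen, and the difference was 0.60 ± 0.062 (limma adjusted p = 7.68e-08) as deposited, while at 0.25 after median-of-ratios scaling WARS was not called in both clones. TARS (ENSG00000113407.13, chr5:33440696-33469539), the threonyl enzyme, went the other way, with day-4 levels of 90.7, 87.9 and 91.1 in FL, 76.0, 81.5 and 80.2 in 1D5 and 73.2, 78.8 and 78.7 in 1KI9. Its GATA1s libraries were all below FL, with a difference of -0.20 ± 0.042 (adjusted p = 0.000246), and of -0.56 after median-of-ratios scaling. HARS (ENSG00000170445.15, chr5:140673904-140691862), the histidyl enzyme, had day-4 levels of 41.1, 43.7 and 43.6 in FL, 35.4, 35.0 and 35.6 in 1D5 and 40.4, 38.3 and 39.2 in 1KI9. Here 1KI9 lay just under FL and 1D5 further below, and the difference was -0.19 ± 0.043 (adjusted p = 0.000533). The HARS call was lost without globin and mitochondrially encoded genes, without a variance trend, and when replicate 2 or 3 of FL or of 1KI9 was left out.

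Among the mitochondrial enzymes at day 4, EARS2 (ENSG00000103356.15, chr16:23522014-23557731), which charges glutamate, differed most. Its levels were 6.56, 6.36 and 6.81 in FL, 13.7, 9.92 and 12.2 in 1D5 and 14.2, 14.5 and 14.2 in 1KI9. No GATA1s library came near FL, and the log2 difference was 0.89 ± 0.089 (limma adjusted p = 5.62e-08), or 0.57 after median-of-ratios scaling. IARS2 (ENSG00000067704.10, chr1:220094102-220148041), which charges isoleucine, had day-4 levels of 21.1, 21.5 and 23.2 in FL, 36.0, 32.0 and 35.4 in 1D5 and 38.8, 37.4 and 41.5 in 1KI9, a difference of 0.72 ± 0.064 (adjusted p = 9.98e-09), or 0.37 after median-of-ratios scaling. NARS2, for asparagine, was among the lowest transcripts, with day-4 levels of 3.01, 3.15 and 3.15 in FL, 4.31, 5.25 and 5.10 in 1D5 and 6.28, 5.85 and 6.19 in 1KI9. All 6 GATA1s libraries exceeded FL for NARS2, with a difference of 0.66 ± 0.085 (adjusted p = 1.48e-06), or 0.38 after median-of-ratios scaling. In all, 14 mitochondrial members lay above FL in every GATA1s library, as did 13 cytosolic members, where 54% of all genes did. EPRS, HARS and TARS lay below, where 16% of all genes did.

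**Figure D2:**
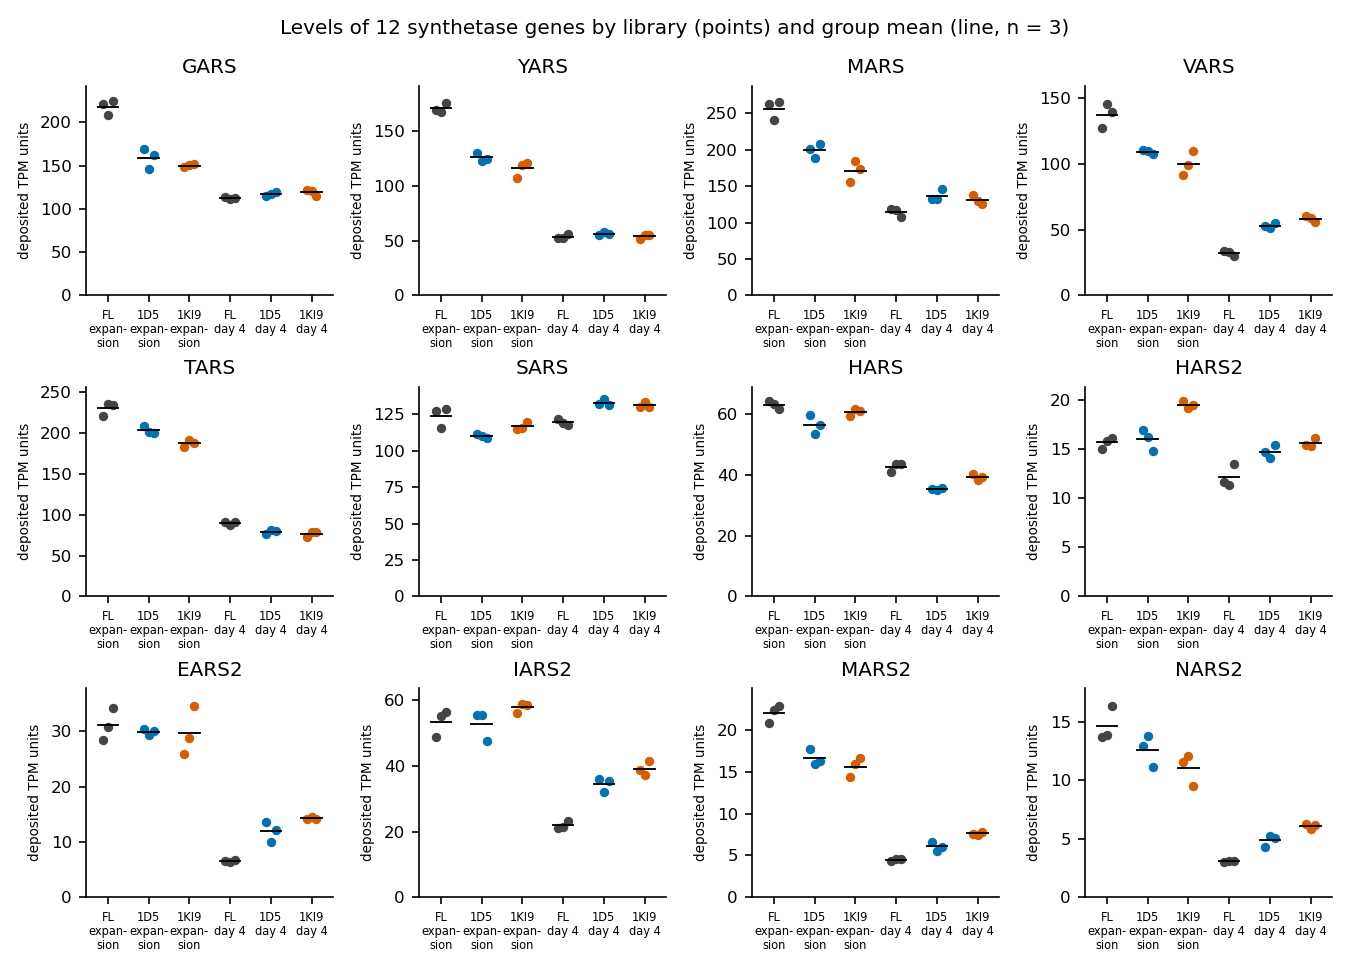
Levels of 12 synthetase genes (y axis from 0, deposited TPM units) in the 18 libraries by group, with a line at each group mean; expansion and day 4 were scaled separately by the authors. GARS, YARS and MARS are highest in FL in expansion, VARS, EARS2, IARS2 and NARS2 are lowest in FL at day 4, and SARS stays between 109 and 136 in all 18 libraries.

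A ratio within a library does not move with a factor common to all its genes, so the summed cytosolic transcripts were divided by the summed mitochondrial ones. Whether the further scaling at day 4 was such a factor is unknown. In expansion the ratio ran from 8.20 to 8.83 in FL, from 6.94 to 7.80 in 1D5 and from 7.0 to 7.08 in 1KI9, with means of 8.42 ± 0.36, 7.33 ± 0.44 and 7.05 ± 0.051 (SD, n = 3). At day 4 it ran from 9.35 to 10.1 in FL, from 7.82 to 8.11 in 1D5 and from 7.31 to 7.58 in 1KI9, with means of 9.77 ± 0.40, 7.92 ± 0.17 and 7.49 ± 0.15. In both conditions each of the 6 GATA1s libraries lay below each FL library. The ratio was not tested, since the members were chosen with results of these data known. The sums behind it were 3080 ± 67.2, 2595 ± 53.7 and 2485 ± 99.1 TPM for the cytosolic enzymes in FL, 1D5 and 1KI9 in expansion, and 366.5 ± 20.6, 354.9 ± 20.0 and 352.3 ± 15.7 TPM for the mitochondrial ones. At day 4 the cytosolic sums were 1445 ± 10.7, 1620 ± 23.5 and 1667 ± 3.05, and the mitochondrial sums 148 ± 5.16, 204.8 ± 6.55 and 222.7 ± 4.15. In expansion the mitochondrial sums of the clones overlapped and the cytosolic sums did not overlap with FL, while at day 4 the mitochondrial sum stood at a higher multiple of FL than the cytosolic sum.

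**Figure D3:**
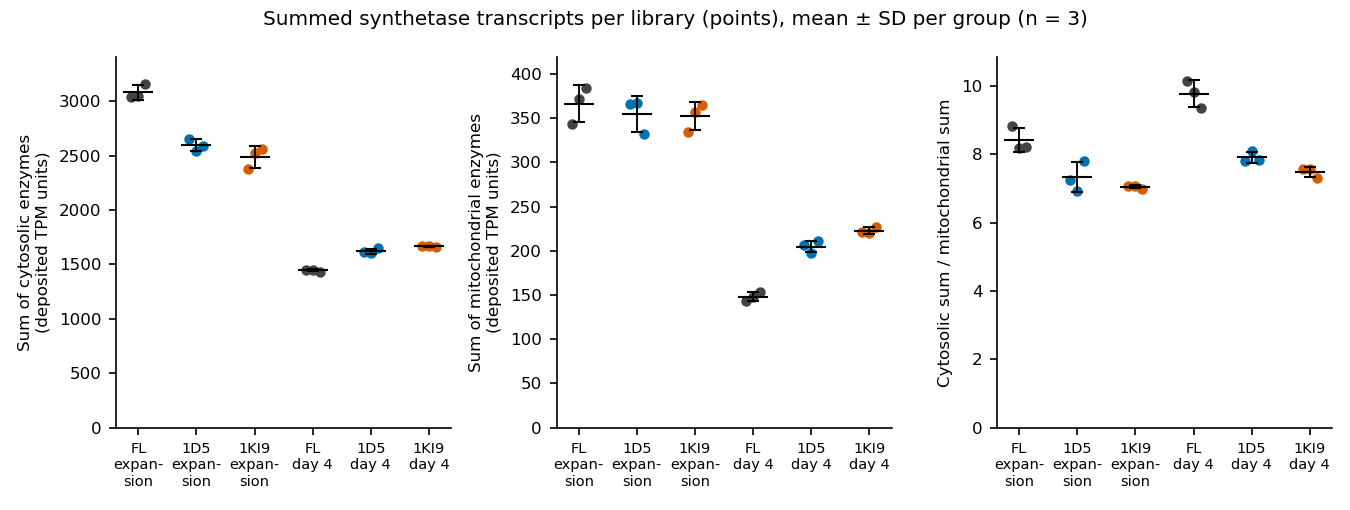
Summed deposited TPM units of the 20 cytosolic enzymes (left), of the 16 mitochondrial enzymes (middle) and their ratio (right) in each library, with mean and SD per group (n = 3). The ratio is lower in 1D5 and 1KI9 than in FL in expansion and at day 4, and a factor common to all genes of a library would not move it.

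The same ratio was taken for each of 17 pairs of enzymes that serve the same amino acid, with EPRS, which charges both glutamate and proline, and the mitochondrial FARS2 in 2 pairs each. In expansion the ratio was lower in all GATA1s libraries than in all FL libraries for 7 pairs, higher for 0, and overlapped for 10. At day 4 it was lower for 7, higher for 3 (RARS over RARS2, VARS over VARS2 and WARS over WARS2) and overlapped for 7. The share among other pairs of genes was not computed, so these counts have no background and only describe the pairs. It was lower in both conditions for 3 pairs, AARS over AARS2, EPRS over EARS2 and HARS over HARS2. The glutamyl pair differed most at day 4, where the mean EPRS over EARS2 ratio in GATA1s was 44.2% of that in FL. The other 4 pairs lower at day 4 were EPRS over PARS2, NARS over NARS2, TARS over TARS2 and IARS over IARS2, at 51% to 72.5% of the FL ratio.

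HARS and HARS2 lie head to head on chromosome 5, on opposite strands, with RefSeq starts 84 bases apart (59.5% GC). Their ratio was 4.04 ± 0.23 in FL, 3.55 ± 0.25 in 1D5 and 3.12 ± 0.11 in 1KI9 in expansion, and 3.54 ± 0.31, 2.40 ± 0.096 and 2.52 ± 0.10 at day 4. The neighbours therefore differed in opposite directions at day 4 as deposited, with HARS2 at 11.7, 11.3 and 13.5 in FL, 14.7, 14 and 15.4 in 1D5 and 15.4, 15.3 and 16.1 in 1KI9, although HARS2 changed sign to -0.04 after median-of-ratios scaling. Exons of the pair overlap on opposite strands. Whether counting used strand is not stated in the sources at hand, so their values may share reads, and the same holds for 8 other members that overlap exons of a protein-coding gene on the other strand, among them MARS with DDIT3, YARS with S100PBP, WARS with WDR25 and EARS2 with UBFD1.

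Phenylalanyl-tRNA synthetase is built from alpha (FARSA) and beta (FARSB) chains in equal number, and FARSA was the more abundant transcript in every group. FARSB (ENSG00000116120.10, chr2:222570536-222656337) had levels of 23.1, 22.2 and 25.3 TPM in FL, 20.6, 19.5 and 19.8 TPM in 1D5 and 16.9, 18.3 and 18 TPM in 1KI9 in expansion. At day 4 these were 4.46, 4.35 and 4.67 in FL, 6.78, 6.07 and 6.46 in 1D5 and 7.12, 7.50 and 7.59 in 1KI9. FARSB was lower in GATA1s in expansion and higher at day 4, by 0.53 ± 0.058 on the log2 scale (limma adjusted p = 1.8e-07) as deposited and by 0.22 after median-of-ratios scaling. The ratio of FARSA to FARSB was 6.67 ± 1.00 in FL, 7.01 ± 0.38 in 1D5 and 6.75 ± 0.19 in 1KI9 in expansion, and 14.7 ± 1.8, 12 ± 1.4 and 10.6 ± 1.4 at day 4. FL and GATA1s libraries overlapped in this ratio in both conditions, while every day-4 ratio was above every expansion ratio.

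**Figure D4:**
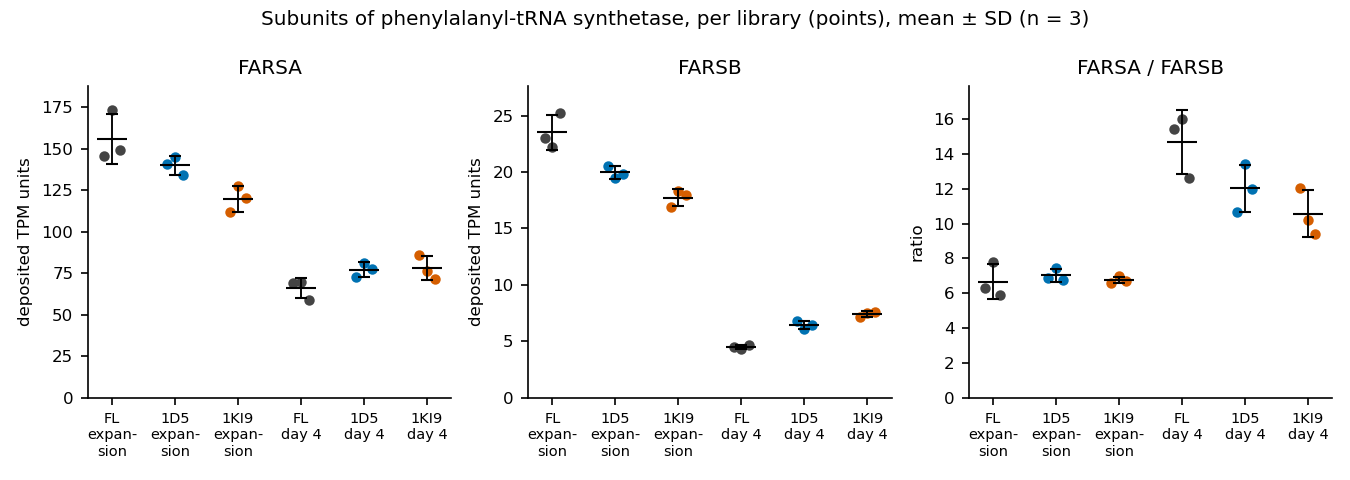
Levels of FARSA (left) and FARSB (middle) in deposited TPM units and the ratio of the subunits (right) in each library, with mean and SD per group (n = 3). The ratio is about 7 in all expansion groups (6.67 to 7.01) and 10.6 to 14.7 at day 4, with FL and GATA1s libraries overlapping.

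From expansion to day 4 most synthetase transcripts fell in all 3 clones. In FL, 83.7% of 11015 genes were called and 57.2% were lower. Against that background, 19 cytosolic members and 16 mitochondrial members were lower in FL, with medians of -1.19 and -1.20 on the log2 scale and -0.38 for all genes. In 1D5, where 78.9% were called and 47% lower, 17 cytosolic and 15 mitochondrial members were lower (medians -0.78 and -0.80, all genes -0.15). In 1KI9, where 74.4% were called and 52.2% lower, 17 and 16 were lower (medians -0.62 and -0.61, all genes -0.25). The conditions were scaled separately by the authors. After median-of-ratios scaling 15 cytosolic and 15 mitochondrial members were lower in FL, 17 and 14 in 1D5, and 13 and 12 in 1KI9. Of all genes, 40.2% were then lower in FL, 39.7% in 1D5 and 35.5% in 1KI9.

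FARSB fell by 2.16 ± 0.066 on the log2 scale in FL (limma adjusted p = 4.15e-15), 4.46-fold, and the changes in 1D5 and 1KI9 were -1.50 and -1.16. EARS2, which had expansion levels of 28.4, 30.7 and 34.2 TPM in FL, fell by 2.08 ± 0.10 there (adjusted p = 1.23e-12), with changes of -1.27 in 1D5 and -1.0 in 1KI9. MARS2, at 4.36, 4.53 and 4.59 in FL at day 4, fell by 2.07 ± 0.074 there (adjusted p = 1.98e-14), with changes of -1.32 in 1D5 and -0.94 in 1KI9. Each of these genes had the largest fall in FL, the next in 1D5 and the smallest in 1KI9. SARS (ENSG00000031698.13, chr1:109213918-109238169), the seryl enzyme, went against the rest. Its levels were 127, 116 and 129 TPM in FL, 111, 110.1 and 109 TPM in 1D5 and 115, 116 and 119.6 TPM in 1KI9 in expansion, and 122, 119 and 117, 132, 136 and 131, and 130.4, 133 and 129.8 at day 4. SARS rose in 1D5 by 0.27 ± 0.046 (adjusted p = 2.96e-05) and in 1KI9 by 0.17 ± 0.046 (adjusted p = 0.00357), where 31.9% and 22.2% of all genes were higher, and was called under all 3 scalings, while its change in FL was -0.05 (adjusted p = 0.295) and changed sign with the scaling.

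**Figure D5:**
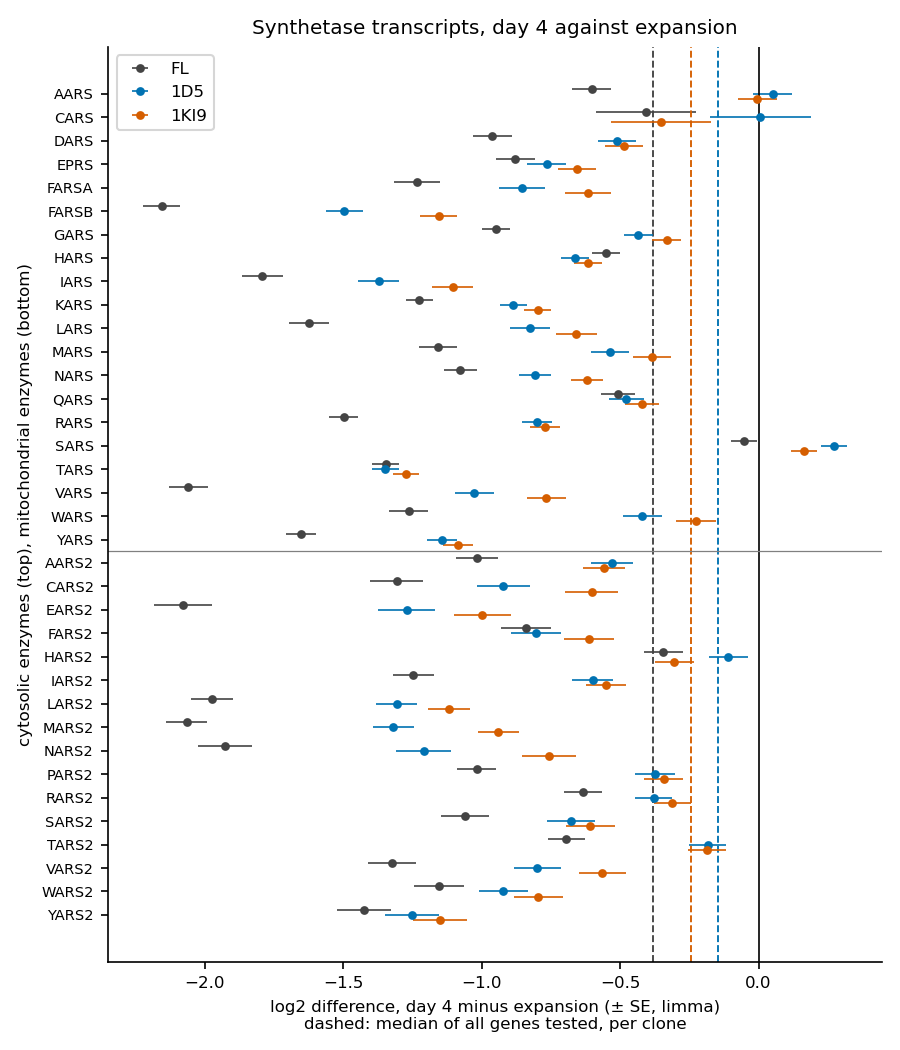
Each row is 1 synthetase gene, and points give the log2 difference of day 4 from expansion with its SE (limma) in FL (grey), 1D5 (blue) and 1KI9 (orange), as deposited; dashed lines mark the median of all genes per clone (-0.38, -0.15 and -0.25). Most points lie left of their dashed line, FL points lie furthest left for most genes, and SARS lies at or right of 0; the conditions were scaled separately, and sign changes across scalings were limited to CARS and SARS among cytosolic members and HARS2 among mitochondrial members in FL, to HARS2 and TARS2 in 1D5, and to AARS, WARS, HARS2 and TARS2 in 1KI9.

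The difference between GATA1s and FL changed from expansion to day 4 for most members. The interaction was called for 65.1% of 11015 genes, 45.4% positive and 19.7% negative, with a median of 0.21. It was positive for 15 cytosolic members (median 0.52) and 13 mitochondrial members (median 0.53) and negative for 0 of either. After median-of-ratios scaling it was positive for 13 and negative for 3 cytosolic members, and positive for 10 mitochondrial members. Of all genes, 31% were then called positive and 30.7% negative. The largest were VARS at 1.16 ± 0.085 (limma adjusted p = 5.14e-09), EARS2 at 0.95 ± 0.13 (adjusted p = 4.51e-06) and NARS2 at 0.94 ± 0.12 (adjusted p = 2.68e-06). VARS thus passed in opposite directions in the 2 conditions. EARS2 and NARS2 were not called in expansion and were called higher at day 4, under all 3 scalings.

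Between the GATA1s clones few members differed as deposited. In expansion 40.6% of all genes were called between 1KI9 and 1D5, and of the 36 members 3 were. HARS2, at 16.9, 16.2 and 14.8 TPM in 1D5 and 19.9, 19.2 and 19.5 TPM in 1KI9, was higher in 1KI9 by 0.27 ± 0.070 (limma adjusted p = 0.00464), and this call was lost after median-of-ratios scaling, where the difference was 0.10. FARSA (-0.22 ± 0.083, adjusted p = 0.0391) and MARS (-0.22 ± 0.069, adjusted p = 0.0169) were lower in 1KI9, with the groups not overlapping in either gene. The number of members called in expansion was 22 after median-of-ratios scaling, 14 cytosolic and 8 mitochondrial, all lower in 1KI9, where 25.8% of all genes were lower and 19.2% higher. At day 4, 19.2% of all genes and 4 members were called. MARS2 (0.29 ± 0.074, adjusted p = 0.0103) and LARS2 (0.25 ± 0.075, adjusted p = 0.0246) were higher in 1KI9, AARS (-0.23 ± 0.070, adjusted p = 0.0283) was lower, and HARS, at 0.15 (adjusted p = 0.0442), was the fourth.

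Partners of the synthetases were counted in the same way, beside 8.98% of all genes called lower and 17.5% higher in expansion as deposited. In expansion 0 of the 3 scaffold proteins of the multisynthetase complex were called by limma, and 1 was lower at an unadjusted p under 0.05 in both clones. Of 15 genes for tRNA maturation, export and editing 6 were lower, among them XPOT, the tRNA exporter, at -0.42, the tRNA methyltransferase NSUN2 at -0.39 and the 3′ processing enzyme ELAC2 at -0.36. Of 5 cytosolic elongation factors 4 were lower (EEF1D at -0.38, EEF1B2 at -0.25 and EEF2 at -0.23), while of 9 mitochondrial translation factors 2 were lower and 1, the initiation factor MTIF3 at 0.36, was higher. After median-of-ratios scaling the counts lower were 1 scaffold, 6 tRNA genes, 3 elongation factors and 3 mitochondrial factors, where 15.5% of all genes were lower.

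At day 4 the elongation factors stayed lower in GATA1s, 4 of 5 as deposited, 5 of 5 after median-of-ratios scaling and 3 of 5 without globin and mitochondrially encoded genes, with EEF1D at -0.54, EEF1B2 at -0.34 and EEF2 at -0.17 as deposited. The scaffold gene AIMP2 was higher by 0.84 (0.49 after median-of-ratios scaling), with means of 25.5 in FL and 45.4 and 47.3 in 1D5 and 1KI9. QRSL1, a subunit of the enzyme that makes glutaminyl-tRNA in mitochondria, was higher by 0.64 (0.36 after median-of-ratios scaling). Counts for tRNA maturation (12 of 15 higher) and mitochondrial translation factors (7 of 9 higher) did not hold under median-of-ratios scaling. That scaling gave 1 higher and 3 lower, and 0 higher and 1 lower. Of all genes at day 4, 51.2% were called higher and 14.3% lower as deposited, and 26.4% and 31.3% after median-of-ratios scaling. Without globin and mitochondrially encoded genes, 13.6% of all genes were lower.

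Genes of the amino acid response were more often called lower than higher in GATA1s in expansion. Of 25 tested, 12 were lower, 2 higher and 11 not called (13 lower and 1 higher after median-of-ratios scaling). Of all genes, 8.98% were lower and 17.5% higher as deposited, and 15.5% and 14.7% after median-of-ratios scaling. The glutathione-degrading enzyme CHAC1 was at -1.77, the neutral amino acid transporter SLC1A4 at -1.57 and the leucine transporter subunit SLC7A5 at -1.17. At day 4 the same list held 9 higher and 4 lower as deposited, where 51.2% of all genes were higher and 14.3% lower, and 6 higher and 8 lower after median-of-ratios scaling, where the shares were 26.4% and 31.3%. As deposited, SLC1A4 was at -2.14, the heme-regulated kinase gene EIF2AK1 at -1.25 and the stress-induced DDIT4 at 1.36. MYC was lower in both conditions, at -0.59 in expansion (limma adjusted p = 1.23e-06) and -0.66 at day 4 (adjusted p = 1e-07), and under all 3 scalings. These lists were written with earlier results of these data known, and their part in the synthetase differences was not tested.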

How the data were processed

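RNA was measured in 18 libraries of 6 groups with 3 each. The authors deposited 1 table of 13358 genes. Trim Galore 0.60, STAR 2.7 and RSEM 1.31 are among the tools in the submitters' processing notes, with hg38 (GRCh38.p12) as the build. The authors gave expansion values as TPM. Deposited day-4 values are a TPM-like signal, since FL sums exceed what TPM allows, and the method of that further scaling is not stated in the sources at hand. The planned log-scale test, which had assumed TPM throughout, was kept. Neither unit keeps read depth, so depth is unknown and no counting interval was computed. Genes listed at 0 in every library of a condition were left out of comparisons that use it.

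The log2(value + 1) scale was used, on which changes of low genes are understated. Genes that reached 1 in 3 or more libraries entered a limma 3.58.1 model (R 4.3.3) with a mean for each group over all 18 libraries and a variance trend, checked on simulated data. P-values were adjusted by Benjamini-Hochberg over all genes tested, with a threshold of 0.05. Calls against FL need both clones, and the size given is the mean of both clones minus FL, which share the same FL libraries. Gene positions are those of GENCODE 29, matched without the version number for all 36 members.

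Full values are given for the 5 cytosolic and 3 mitochondrial members with the largest called differences from FL in each condition, the 3 largest called interactions, clone differences and changes with condition in FL, and called members that go against their compartment. Members and lists were chosen with earlier results of these data known, and 1 list is not reported here in full. The alternatives were other pseudocounts, filters and scalings, only the libraries compared, a replicate block, no variance trend, a fold minimum, the mean of both clones as the call, each library left out, and sums without their highest members or without GARS and KARS.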

Additional observations from a re-analysis of the deposited data

Results flagged for a closer look

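The difference between GATA1s and FL changed between expansion and day 4, by the interaction term of the limma model, for 15 cytosolic and 13 mitochondrial members, where 65.1% of all genes tested were called. Among the cytosolic genes described in the report, the interaction was 0.63 for AARS, 0.50 for FARSA, 0.83 for FARSB, 0.57 for GARS, 0.88 for LARS, 0.70 for MARS, 0.71 for RARS, 0.27 for SARS, 1.16 for VARS, 0.94 for WARS and 0.54 for YARS, all on the log2 scale as day 4 minus expansion. Among the mitochondrial genes it was 0.95 for EARS2, 0.67 for IARS2, 0.76 for LARS2, 0.94 for MARS2 and 0.94 for NARS2. The median interaction of all genes was 0.21 as deposited and 0.01 after median-of-ratios scaling. Of the 16 genes named here, all but SARS were called in the same direction under all 3 scalings.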

How the results depend on the processing

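Against FL at day 4, 10 cytosolic and 4 mitochondrial members changed sign across the 3 scalings, and KARS and SARS were called in both directions. In expansion the 13 cytosolic members lower became 0 at a minimum of 1.5-fold, and the 1 mitochondrial member lower became 2 after median-of-ratios scaling, 0 at 1.5-fold and 3 (with 3 higher) when the mean of both clones made the call. Of all genes in expansion, 1.54% were lower at 1.5-fold, 15.5% after median-of-ratios scaling, and 18% (34.4% higher) by the mean of both clones. At day 4 the 11 cytosolic members higher became 4 after median-of-ratios scaling and 2 at 1.5-fold, and the 14 mitochondrial members higher became 6 and 2. Of all genes at day 4, 26.4% were higher after median-of-ratios scaling and 20.3% at 1.5-fold. The 2 cytosolic members lower became 9 after median-of-ratios scaling, 1 without globin and mitochondrially encoded genes, 1 without a variance trend, 0 at 1.5-fold and 1 to 2 with a library left out (1 without replicate 2 or 3 of FL or of 1KI9). The share of all genes lower was 31.3% after median-of-ratios scaling and 13.6% without globin and mitochondrially encoded genes. It was 14.2% without a variance trend and 6.33% at 1.5-fold. At 1.5-fold the interaction counts were 7 and 7, where 20.3% of all genes were positive and 10.5% negative. At the same minimum 9 mitochondrial members fell in 1KI9 from expansion to day 4, where 27.9% of all genes did. Members called between 1KI9 and 1D5 in expansion numbered 5 with a pseudocount of 5, 22 after median-of-ratios scaling, 9 without globin and mitochondrially encoded genes, 0 at 1.5-fold and 1 to 5 with a library left out (1 without replicate 1 of 1KI9, 5 without replicate 3). The shares of all genes higher and lower were 33.8% and 7.66% with that pseudocount and 19.2% and 25.8% after median-of-ratios scaling. They were 26.9% and 11.1% without globin and mitochondrially encoded genes, and 9.93% and 1.1% at 1.5-fold. At day 4 the members called between the clones numbered 7 with only the libraries compared, 0 at 1.5-fold and 1 to 3 with a library left out (1 without replicate 2 of 1D5 or replicate 1 or 3 of 1KI9, 2 without replicate 3 of 1D5 or replicate 2 of 1KI9). With only the libraries compared 15.2% of all genes were higher and 9.27% lower, and at 1.5-fold 2.68% and 1.92%. The log2 ratio of the compartment sums differed from FL by -0.34 at day 4 and by -0.28 without QARS and IARS2. Beyond fewer samples or a stricter fold, the causes were not tested. Replicate numbers did not meet the rule for pairing, every pair over 0.1: same-numbered libraries correlated from -0.152 to 0.429 in their deviations, with 10 of 45 pairs over 0.1, while 11 of 18 libraries correlated best with their own number, a hint from the data and not the design. The replicate block left 13 cytosolic members lower in expansion, and 11 higher and 3 lower with 14 mitochondrial members higher at day 4. With that block 9.16% of all genes were lower in expansion, and 51.6% were higher and 14.3% lower at day 4. Depth is unknown and limits what can be said of the lowest transcripts.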

Other observations

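CARS, the cysteinyl enzyme, was not called against FL in either condition, and its day-4 libraries were uneven. Its levels were 23.0, 44.2 and 24.0 in FL, 28.1, 41.2 and 27.6 in 1D5 and 25.3, 24.3 and 24.8 in 1KI9. Replicate 2 stood above the other libraries in FL and 1D5 and not in 1KI9. Among 11110 genes, CARS was the only gene with a mean of at least 10 whose second replicate exceeded both others by at least 1.4-fold in FL and in 1D5 at day 4, a fold chosen after the values were seen. The same pattern held for 1 gene, none of the 36 members, with replicate 1 and for 0 genes with replicate 3.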
